A study of Mus musculus with 4 samples.

Results

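Meis2 Pbx3 inhibitory nuclei were picked out of single-nucleus RNA-seq of mouse cortex by their own transcripts. A nucleus was a member when mitochondrial transcripts made up at most 5% of its UMIs (unique molecular identifiers, 1 per captured RNA molecule), when it held at least 1 UMI of the GABA-synthesis genes Gad1 and Gad2, at most 2 of the excitatory genes Slc17a7 and Neurod6, at least 6 of Meis2, Pbx3 and Cpa6 together, and at most 2 of the striatal genes Rarb, Drd1, Drd2 and Adora2a. The rule found 868 members among 54550 barcodes. Since these counts chose the members, they are a description, and members were set against other nuclei without a test. The cortex came from 5-month-old C57BL/6 mice, 2 of them wildtype and 2 Setdb1-CK-cKO (called knockout here), with 1 library of 3′ tags per animal. The labels do not spell out which Cre driver or allele the name Setdb1-CK-cKO stands for, and they name no treatment.

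Meis2 and Pbx3 encode homeodomain transcription factors of the TALE family that bind DNA together, and both mark GABAergic neurons born in the lateral ganglionic eminence of the embryo. That lineage gives rise to the striatal projection neurons, to the intercalated cells of the amygdala, and to granule and periglomerular interneurons of the olfactory bulb, which are still added in adult mice by migrating neuroblasts. Cpa6 encodes a secreted carboxypeptidase, and Lgr5 encodes a receptor for R-spondins that strengthens Wnt signalling and is expressed in olfactory bulb neurons of the adult. Setdb1 encodes a methyltransferase that places the silencing mark H3K9me3, and its loss in other systems releases germline genes, protocadherin genes and endogenous retroviruses.

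The libraries held between 11790 and 14493 barcodes, and the lowest total of a barcode was 500 or 501 UMIs. Members numbered 274 and 105 in wildtype replicates 1 and 2, and 429 and 60 in knockout replicates 1 and 2. Their summed depth was 939134, 387431, 1262687 and 280648 UMIs in the same order, and their median depth 2443, 2818, 2182 and 4347 UMIs. Between 48 and 64 barcode sequences recurred in each pair of libraries, none of them in members of both. Xist, the X-inactivation RNA, stood at 1.80, 1025, 0.961 and 1384 counts scaled to equal library totals (CPM) in the whole libraries, and the Y-linked Uty at 89.3, 0.117, 82.6 and 0.0261 CPM. The labels, in their cell type field, call knockout replicate 1 female and replicate 2 male, so in both knockout libraries these RNAs went against the labelled sex, and those libraries are named here as labelled. Replicate numbers 1 and 2 share a pattern across genotypes. The targeted gene, Setdb1, stood at 61.8, 51.6, 57.0 and 53.4 CPM in the members, but 3′ tags need not lie in a deleted part, so this level checks nothing.

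The label of an inhibitory, granule-like population held for part of the members. When all nuclei were clustered, 660 members (76.0%) fell in 1 cluster of 2328 nuclei. Its leading genes included Pbx3, Cpa6, Adamts19 and Lgr5, but also the striatal gene Rgs9. Over all nuclei of that cluster, members or not, Rarb stood at 195 CPM and Foxp2 at 238 CPM. A further 110 members (12.7%) fell in excitatory clusters, 44 in other Gad clusters and 54 elsewhere. The share in the main cluster was 72.3% and 64.8% in wildtype replicates 1 and 2, and 83.4% and 60.0% in knockout replicates 1 and 2. Members of that cluster held 474404, 166686, 874946 and 124544 UMIs in the same order, of 939134, 387431, 1262687 and 280648 in all members. In each library this was a smaller part of the UMIs than of the nuclei. Members outside the main cluster therefore weigh more in the summed levels and tests than their number shows. These cluster borders are not exact: over 5 seeds of the clustering, between 635 and 663 members fell in the main cluster and between 107 and 135 in excitatory clusters. At the lower limit of the rule for inhibitory genes, 446 members had exactly 1 UMI of Gad1 and Gad2. Just inside the Meis2, Pbx3 and Cpa6 threshold, 123 nuclei with 6 such UMIs had Lgr5 at 120 CPM and Gad1 at 264 CPM. Just outside it, 158 nuclei with 5 had Lgr5 at 31.8 CPM and Gad1 at 187 CPM.

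Lgr5, which the rule did not use, stood at 121 and 116 CPM in members of the wildtype libraries. It stood at 242 CPM in knockout replicate 1 and at 10.7 CPM in knockout replicate 2. In other Gad nuclei (at least 3 Gad1 and Gad2 UMIs, at most 5 of Meis2, Pbx3 and Cpa6) Lgr5 ranged from 11.2 to 34 CPM, and in oligodendrocyte nuclei, which should lack it, from 0 to 8.19 CPM. Knockout replicate 2 was therefore the 1 library in which Lgr5 in the members was no higher than in other Gad nuclei. Cpa6, a rule gene, had the same order, at 371, 274 and 628 CPM in the first 3 libraries and 42.8 CPM in knockout replicate 2.

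Among transcription factors and markers of olfactory bulb granule cells, Tshz1, a zinc-finger factor of this lineage, averaged 162 CPM over the 4 libraries in members against 31.7 CPM in other Gad nuclei. Etv1, an ETS factor, averaged 85.8 against 29.6 CPM, and Pax6, a paired-box factor, 33.4 against 10.7 CPM. Etv1 was also at 63.2 CPM in oligodendrocyte nuclei and Tshz1 at 45.6 CPM. Whether stray RNA, doublets or expression in those nuclei gave these levels was not tested. Synpr, a synaptic vesicle protein, did not separate the classes, at 276 CPM in members, 255 CPM in other Gad nuclei and 328 CPM in oligodendrocyte nuclei. Sp8 (6.13 CPM) and Tpbg (1.31 CPM) were near 0. All 10 granule-cell markers of the list had at least 1 UMI, but Meis2, Pbx3 and Cpa6 chose the members and Lgr5 came with the label. Without these 4 the other 6 summed to 749, 506, 790 and 214 CPM in members, in the order wildtype replicates 1 and 2, knockout replicates 1 and 2. They summed to 290 to 375 CPM in other Gad nuclei and 409 to 472 CPM in oligodendrocyte nuclei. Members were thus above both classes in 3 libraries and below both in knockout replicate 2.

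Each of the 14 striatal markers that the rule did not use averaged lower in members than in nuclei that met a striatal rule. Members held at most 2 UMIs of Rarb, Drd1, Drd2 and Adora2a, and the striatal nuclei at least 6. This order is therefore not independent of the 2 rules and is not evidence of an origin. Rgs9, a striatal regulator of G-protein signalling that the rule did not use, averaged 60.6 CPM in members, 34.5 CPM in other Gad nuclei and 695 CPM in the 54 nuclei that met a striatal rule. Ppp1r1b (DARPP-32) averaged 7.84 CPM in members and Adcy5 64.1 CPM, against 28.5 and 659 CPM in the striatal nuclei, while Adcy5 was also at 59.0 CPM in other Gad nuclei and 65.6 CPM in oligodendrocyte nuclei. Without the 4 genes the rule capped, the other 14 striatal markers summed to between 1361 and 2142 CPM in members and to between 1684 and 1904 CPM in other Gad nuclei, a sum in which Pde10a and Foxp1 are the larger terms. Foxp2 and Oprm1, which mark intercalated cells of the amygdala, averaged 208 and 290 CPM in members against 30.8 and 120 CPM in other Gad nuclei. Their list of 5 genes, which includes the rule genes Meis2 and Pbx3, was also high in the striatal nuclei. Its mean sum was 3260 CPM in members, 2026 CPM in striatal nuclei and 324 CPM in other Gad nuclei. Which tissue each nucleus came from was not tested.

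Outside the rule genes, the genes with the highest levels in members relative to other Gad nuclei (at least 50 CPM in every library in the class where the gene was higher) were led by Meis1, a partner of Pbx factors, which was 13.8-fold higher, with 7.56-fold to 19.7-fold in single libraries. Abi3bp (7.2-fold), Syt6 (7.15-fold), Foxp2 (6.76-fold) and Tshz1 (5.13-fold) came next among genes with a known name. Foxp2 and Syt6 were also leading genes of an excitatory cluster of 4175 nuclei, 28 of them members. Abi3bp was a leading gene of another excitatory cluster, of 1905 nuclei with 10 members. High levels of these 3 genes are therefore not particular to inhibitory nuclei. In single libraries the fold ran from 5.94 to 12.5 for Abi3bp, from 2.03 to 13.3 for Syt6, from 4.44 to 11.1 for Foxp2 and from 1.89 to 8.74 for Tshz1. For Syt6 and Tshz1 the members of knockout replicate 2 were the lowest, at 60.6 and 53.4 CPM. Kcnb2, a delayed-rectifier potassium channel subunit, was 3.64-fold higher (1.71 to 5.42 in single libraries), and Arpp21, a phosphoprotein abundant in striatum and cortex, 3.37-fold (3.14 to 3.92). In the other direction, Pde11a was 15-fold lower in members (at least 4.63-fold in each library), Kcnmb2 14.2-fold (10.4 to 21.1), Reln 11.8-fold (8.47 to 14.2) and Kit 10.2-fold (3.77 to 24.3). Kcnmb2, Reln and Kit belong to known cortical interneuron classes. Of the cortical interneuron lists, the medial ganglionic eminence markers summed to 235 to 266 CPM in members against 951 to 1133 CPM in other Gad nuclei. Adarb2, a marker of caudal ganglionic eminence interneurons, nevertheless stood at 1298 CPM in members, against 2913 CPM in other Gad nuclei and 194 CPM in oligodendrocyte nuclei.

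Clustering of the members alone gave 9 groups, of which 8 are described. Their defining genes are a description and are not set against each other by a test. In 3 groups, 438 nuclei in all, Lgr5, Tshz1, Etv1 and Pax6 were present together with Cpa6, and these are called granule-like. In the granule-like nuclei Lgr5 stood at 300 and 482 CPM in the wildtype libraries and 340 CPM in knockout replicate 1. Tshz1 stood at 328, 362 and 418 CPM in the same libraries. The 3 groups are named for Syt10, a synaptotagmin (288 CPM in a group of 148 nuclei), Tenm3, a teneurin adhesion protein (4470 CPM in 190 nuclei), and Adamts19, a secreted metalloprotease (422 CPM in 100 nuclei). The Adamts19 group also had the highest Cpa6 (1758 CPM) and Synpr (1147 CPM) of the groups described, and Lgr6, a relative of Lgr5, at 199 CPM.

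Smaller groups carried markers of other olfactory interneuron stages. A periglomerular-like group of 16 nuclei had Th, the rate-limiting enzyme of dopamine synthesis, at 277 CPM, Ddc, the next enzyme, at 69.3 CPM and the factor Sall3 at 162 CPM. These levels rest on few UMIs, 12 for Th, and 11 of the nuclei came from knockout replicate 1. Its Lgr5 level of 1547 CPM was the highest of the groups described, while Cpa6 had 0 UMIs there. A neuroblast-like group of 42 nuclei had Igfbpl1, a marker of immature olfactory neurons, at 327 CPM, the SoxC factors Sox11 and Sox4 at 207 and 172 CPM, and the topoisomerase Top2a, a gene of dividing cells, at 172 CPM. St8sia2, which builds the polysialic acid of migrating neuroblasts, was 54.5-fold higher there than in other members, from 9 UMIs. Prokr2, a guidance receptor of that route, was 48.4-fold higher, from 6 UMIs. Vcan, which also marks oligodendrocyte precursors, was 55.1-fold higher, from 25 UMIs. Top2a had no UMI in the other groups described.

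Other groups were not granule-like by these markers. A group of 169 nuclei was led by the factors Foxp2 (577 CPM) and Zfhx3 (211 CPM) and the receptor kinase Alk (469 CPM), with Tshz1 at 200 CPM, Lgr5 at 23.4 CPM, Rgs9 at 138 CPM and Rarb at 82.8 CPM. It was not named, because its markers are shared by striatal and amygdalar neurons. A group of 25 nuclei, 24 of them in excitatory clusters, was led by Hs3st4 (2898 CPM), Zfpm2 and Tle4, genes of deep-layer corticothalamic neurons. A further group, of 44 nuclei and highest in Klhl1 (417 CPM), carried granule-cell genes (Tshz1 275 CPM, Lgr5 150 CPM, Adamts19 442 CPM) together with the oligodendrocyte genes Mbp (684 CPM), St18 and Aspa. It was left unnamed. Of its nuclei, 33 came from wildtype replicate 1, 0 of them marked as doublets, while 7 of its 10 nuclei in knockout replicate 1 were marked.

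**Figure D1:**
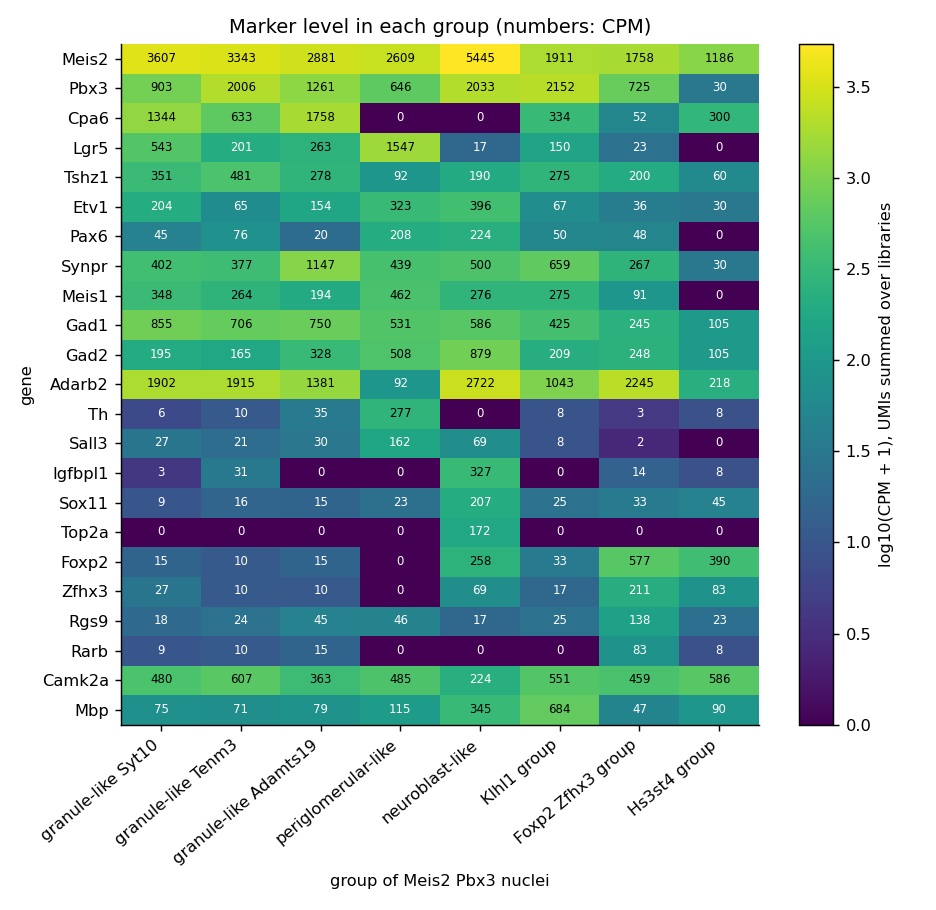
Level of 23 genes (rows) in the 8 groups described of Meis2 Pbx3 nuclei (columns), in CPM of UMIs summed over the libraries, with colour giving log10(CPM + 1). Lgr5 and Cpa6 are high together in the 3 granule-like groups, and Th is at 277 CPM in the periglomerular-like column and Top2a at 172 CPM in the neuroblast-like column.

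The groups were spread unevenly over the animals. Granule-like nuclei numbered 121 of 274 members (44.2%, Clopper-Pearson 95% interval 38.2 to 50.3) in wildtype replicate 1 and 34 of 105 (32.4%, 23.6 to 42.2) in wildtype replicate 2. They numbered 283 of 429 (66%, 61.3 to 70.4) in knockout replicate 1 and 0 of 60 in knockout replicate 2, which allows a share of up to 5.00% at 3 nuclei of the 60 and up to 5.96% by the Clopper-Pearson interval. The intervals cover counting error only. Knockout replicate 2 had 39 of its 60 members (65.0%) in the Foxp2 Zfhx3 group, against 44, 24 and 62 nuclei of that group in the other libraries. The 2 knockout animals were therefore at opposite ends of this range, and whether the dissections differed was not tested. In these nuclei, fewer cells of a type and less RNA per cell cannot be told apart.

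**Figure D2:**
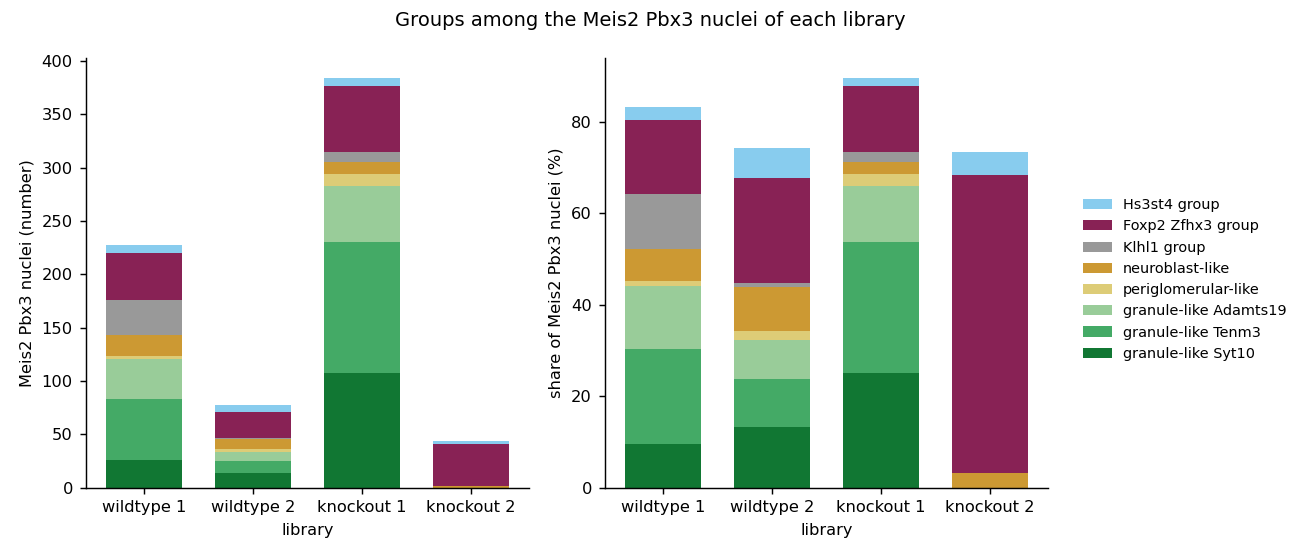
Members of each library in the 8 groups described, as a number of nuclei (left) and as a share of all members of that library (right), so that bars need not reach the full share. The 3 granule-like groups make up 66% of members in knockout replicate 1 and none of the 60 members in knockout replicate 2, where 65.0% belong to the Foxp2 Zfhx3 group.

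As a share of Gad nuclei (members and other Gad nuclei), members made up 48.0% (43.8 to 52.2) and 31.7% (26.7 to 37.0) in the wildtype libraries. In the knockout libraries they made up 64.3% (60.6 to 68.0) and 25.5% (20.1 to 31.6). By this rule the 2 knockout values lay outside both wildtype values, 1 above and 1 below. The means were 39.9% ± 11.5 (SD, n = 2) in wildtype and 44.9% ± 27.4 (SD, n = 2) in knockout, and the exact two-sided permutation test gave p = 1 (2 against 2 cannot go below 0.333). Among nuclei with at least 2000 UMIs, each thinned to that number before the rule, the shares were 45.5%, 21.4%, 64.5% and 17.5%, from 96, 22, 162 and 14 members. Between 4039 and 5622 shallower nuclei per library were left out. Members needed at least 1 UMI of Gad1 and Gad2 and other Gad nuclei at least 3, so all these shares rest on unlike thresholds. By cluster, nuclei of the main cluster with at most 2 striatal UMIs numbered 479, 236, 918 and 485. Other Gad clusters held 1246, 1424, 1049 and 1370 nuclei in the same order. By those counts the share in knockout replicate 2 lay between the wildtype libraries, not below both.

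The question for the genotype was which genes differed between knockout and wildtype in the summed members. Of 8814 genes tested with edgeR's quasi-likelihood test, 1 passed a Benjamini-Hochberg adjusted p of 0.05 upwards (0.0113%) and 0 passed downwards (0%). At an unadjusted p under 0.05 there were 287 genes (3.26%). The gene that rose was 3222401L13Rik (ENSMUSG00000073590), a long noncoding RNA at chr18:37655451-37661742 on the plus strand (mm10, GENCODE M21). Its TMM-scaled level was 8.93 and 10.9 CPM in the wildtype libraries and 92.1 and 95.6 CPM in the knockout libraries. Each knockout library was thus far above both wildtype libraries, with a log2 fold change of 3.26 ± 0.35 (SE) and an edgeR adjusted p of 0.0352. The gene lies within the clustered protocadherin genes, which span chr18:36930184-37841873, and overlaps on the same strand 3 gene models of that locus, with which reads may be shared. The call did not hold under every alternative. Without wildtype replicate 1 or 2 the edgeR adjusted p was 0.527 and 0.119, without doublets 0.104, and within members of the main cluster 1, and limma-voom gave 0.420. It was lost under 9 alternatives in all, while the log2 fold change lay between 2.08 and 3.62 over the alternatives run.

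The genes of next smallest p did not pass the threshold in this fit. Rnf17, a tudor-domain gene of male germ cells (chr14:56402581-56525032), stood at 11.2 and 8.19 CPM in wildtype and 64.9 and 61.2 CPM in the knockout libraries (log2 fold change 2.62 ± 0.37, edgeR adjusted p 0.136). P2rx7, an ATP-gated cation channel, stood at 5.58 and 0 CPM in wildtype and 53.7 and 65.0 CPM in knockout (edgeR adjusted p 0.136). Microglia also express P2rx7, and the 4 microglial markers summed to 102 and 129 CPM in wildtype members and 115 and 160 CPM in knockout members. Their part in the value was not tested.

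Mnd1, which acts in meiotic recombination (chr3:84087933-84155786), had 3 UMIs in wildtype members and 120 in knockout members, a ratio of 33.4 at equal depth with a 95% counting interval of 11.2 to 164 (edgeR adjusted p 0.209). Its level was 3.35 and 0 CPM in wildtype and 90.5 and 26.8 CPM in knockout. Gm11884, a long noncoding RNA, had 0 UMIs in wildtype and 61 in knockout, at least 17.0-fold higher when 3 UMIs are allowed over the wildtype libraries (edgeR adjusted p 0.999). The noncoding RNA 2310067P03Rik had 1 UMI in wildtype and 53 in knockout, a ratio of 44.3 (7.61 to 1782).

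Gm26672, a noncoding transcript on the minus strand of the protocadherin gamma region (chr18:37746559-37768242), stood at 141 and 134 CPM in wildtype and 314 and 405 CPM in the knockout libraries (log2 fold change 1.37 ± 0.27, edgeR adjusted p 0.706). It overlaps Pcdhga and Pcdhgb genes on the other strand, and since the sources used here do not say whether counting used strand, its reads and theirs cannot be told apart. Atf7ip, a binding partner that stabilises SETDB1, stood at 75.9 and 65.5 CPM in wildtype and 153 and 164 CPM in the knockout libraries (log2 fold change 1.14 ± 0.25, edgeR adjusted p 0.999). Gm49171 stood at 7.81 and 19.1 against 44 and 45.9 CPM. In each gene named among those of smallest p both knockout libraries were above both wildtype libraries, a pattern found for 16.1% of all tested genes, and for 15.8% in the opposite direction.

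**Figure D3:**
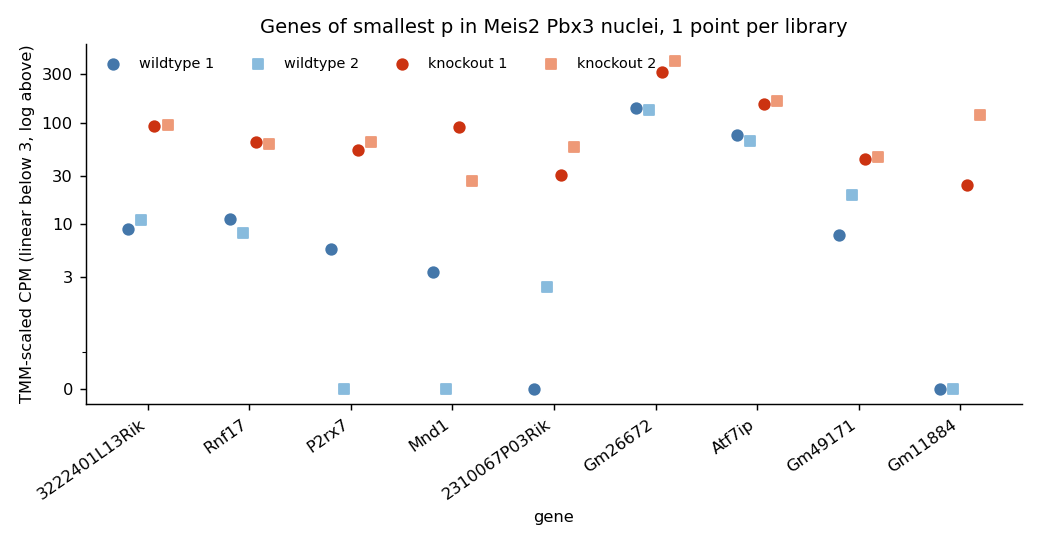
TMM-scaled CPM of 9 of the 10 genes of smallest p (3222401L13Rik is the 1 that passed) in the Meis2 Pbx3 nuclei of each library, on an axis that is linear below 3 and logarithmic above. Both knockout points lie above both wildtype points for each gene, from 8.93 and 10.9 against 92.1 and 95.6 for 3222401L13Rik to 0 and 0 against 24.0 and 119 for Gm11884.

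Leaving out a library moved the number of calls by far more than 1.5 times. Without knockout replicate 2, the library with no granule-like nuclei, 55 genes passed upwards and 65 downwards. Without knockout replicate 1, 57 passed upwards and 54 downwards. Without wildtype replicate 1 or 2, 0 passed. In each of these fits 1 animal stands for a genotype and is assumed to vary like the others. Restricting the sum to members of the main cluster left 0 calls among 6058 genes.

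A list of 16 genes that earlier results of these libraries gave as raised across excitatory neurons was followed in the members, and it is not independent evidence of a direction. Of the 16, 12 passed the filter on low counts. 1 of the 12 rose (3222401L13Rik) and 11 did not pass. The median log2 fold change of the 12 was 2.11, against 0.0019 over all tested genes. Crlf2, a cytokine receptor, stood at 8.93 and 16.4 CPM in wildtype and 47.2 and 30.6 CPM in knockout. Zfp541, a zinc-finger gene of meiotic cells, stood at 1.12 and 2.73 against 18.4 and 22.9 CPM, and Gramd1c, a sterol transporter, at 6.70 and 13.6 against 31.2 and 80.3 CPM. Adk, adenosine kinase, was less far apart, at 164 and 136 against 204 and 187 CPM. The 4 genes below the filter were Bglap3 (1 UMI in wildtype, 48 in knockout), Pecam1 (4 and 51), C4b (1 and 16) and Hoga1 (0 and 4). Pecam1 also marks endothelial cells, whose other markers Cldn5, Flt1 and Cdh5 averaged 0.198, 0.266 and 0 CPM in the members.

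The 7 genes that earlier results gave as lowered across excitatory neurons all passed the filter, and 0 passed the test. Their median log2 fold change was -0.36. Ptprt, a receptor phosphatase, stood at 503 and 483 CPM in wildtype and 249 and 386 CPM in knockout, and Grm8, a metabotropic glutamate receptor, at 622 and 527 against 432 and 486 CPM. Tmem132d overlapped between genotypes, at 288 and 385 against 126 and 317 CPM.

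Since 1 of all 8814 tested genes was called (0.0113%), 0 calls in a list says little about its genes. Among the pathway lists, germline and meiotic genes had 7 of 24 members above the filter, 0 of which passed, with a median log2 fold change of 0.78. Rnf17, Mnd1, Zfp541 and Mei1 had the smallest p of these, and Rnf17, Zfp541 and Mei1 also stand in the list from earlier results. Of 28 transcription factors of the lateral ganglionic eminence lineage, 18 were tested and 0 passed. Etv1 stood at 98.2, 126, 96.1 and 38.2 CPM in the order used above, and Zfhx4 at 55.8, 57.3, 20.0 and 57.4 CPM. Of 36 genes of LGR5 and Wnt signalling, 13 were tested and 0 passed, with a median log2 fold change of -0.10. Of 23 genes of H3K9 methylation and HUSH silencing, 16 were tested and 0 passed. Trim28, the corepressor that recruits SETDB1, stood at 21.2 and 21.8 CPM in wildtype and 8.01 and 3.82 CPM in knockout, from 27 and 11 UMIs.

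Genes of synaptic transmission and excitability also gave no calls, where 1 of all 8814 tested genes was called (0.0113%). Of 29 presynaptic genes tested, 24 had a negative log2 fold change (median -0.18), and of 27 postsynaptic and adhesion genes 22 did (median -0.17). Over all tested genes the median was 0.0019. Homer1, a postsynaptic scaffold, stood at 220 and 202 CPM in wildtype and 143 and 84.1 CPM in the knockout libraries (log2 fold change -0.82 ± 0.29, edgeR adjusted p 0.999). The GABA receptor subunit Gabrd stood at 42.4 and 21.8 against 15.2 and 11.5 CPM. Gad2 was at 203 and 213 against 196 and 233 CPM, with overlapping groups. Of 80 cytosolic ribosomal protein genes tested, 77 had a positive log2 fold change (median 0.50), and 0 passed. In 46 of the 80 both knockout libraries were above both wildtype libraries, a pattern found for 16.1% of all tested genes. Rpl37a stood at 49.1 and 60.0 CPM in wildtype and 138 and 91.8 CPM in knockout. Complement genes C1qa and C1qb and the interferon gene Stat2, the only genes of their lists above the filter, did not pass, and 0 of 18 genes of antigen presentation were abundant enough to test. Over all 42 lists, 36 had a tested gene and 1 had a called gene, the same 3222401L13Rik that was the only call.

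Within the groups of members, several of these genes were set side by side by library. In granule-like nuclei, which knockout replicate 2 lacks, 3222401L13Rik stood at 20.0 and 30.2 CPM in wildtype and 96.6 CPM in knockout replicate 1. Rnf17 stood at 16.0 and 0 against 71.6 CPM, and Mnd1 at 4.0 and 0 against 133 CPM. P2rx7 and Bglap3 each had 0 UMIs in wildtype granule-like nuclei and 22 in knockout replicate 1. Here 1 knockout animal stands against 2 wildtype animals, so the spread comes from the wildtype pair alone and the knockout animal is assumed to vary like it. On that footing edgeR called 1 gene up, Mnd1 (log2 fold change 5.22, adjusted p 8.44e-07), and 7 down, and did not call 3222401L13Rik (adjusted p 0.166).

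In the Foxp2 Zfhx3 group, present in all 4 libraries, 3222401L13Rik stood at 5.77 and 11.3 CPM in wildtype and 56.5 and 94.6 CPM in knockout. Rnf17 stood at 11.5 and 11.3 against 78.2 and 54.0 CPM, and Mnd1 had 0 UMIs in both wildtype libraries and 12 and 5 in knockout. Atf7ip stood at 57.7 and 45.3 against 109 and 169 CPM, and Gm26672 at 167 and 181 against 343 and 371 CPM. Each of these genes was higher in both knockout libraries than in both wildtype libraries within this group, although 0 of 3392 genes passed there. The genes were chosen by their p in sums that include these nuclei, so this order is not independent evidence of a direction.

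**Figure D4:**
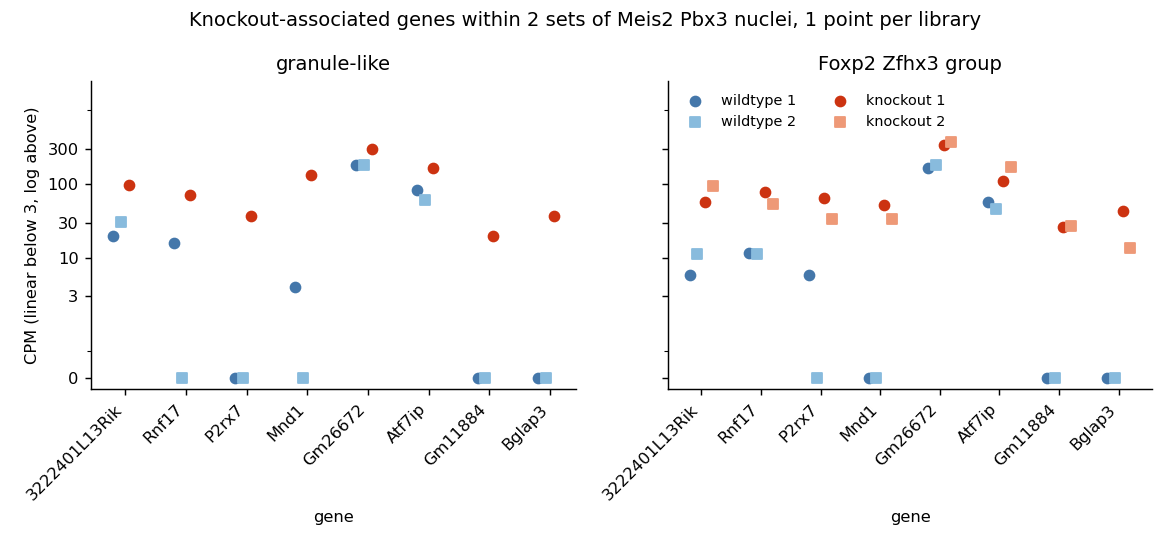
CPM of 8 genes in each library within granule-like nuclei and the Foxp2 Zfhx3 group, on an axis that is linear below 3 and logarithmic above. Knockout replicate 2 has no point in the granule-like panel, and the knockout points lie above the wildtype points in each panel for all 8 genes drawn, for example 56.5 and 94.6 against 5.77 and 11.3 for 3222401L13Rik in the Foxp2 Zfhx3 group. The genes were chosen from the summed members or from earlier results of these libraries, so this order is not independent evidence.

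Whether the knockout effect in members differed from that in other Gad nuclei was tested as a genotype-by-class term. Of 11047 genes, 0 passed (0%) by edgeR, 0 by DESeq2, and 287 had an unadjusted p under 0.05. The smallest p was that of Pggt1b, a prenyltransferase subunit, at 22.4, 10.3, 40.4 and 39.2 CPM in members and 41.0, 30.0, 22 and 18.9 CPM in other Gad nuclei (difference of log2 effects 1.96 ± 0.47, edgeR adjusted p 1). For 3222401L13Rik the knockout effect in other Gad nuclei was 4.22 on the log2 scale (edgeR adjusted p 9.87e-07) and the difference -0.93, which did not pass. In the other Gad nuclei on their own, 36 of 10237 genes passed (0.352%), 28 upwards (0.274%) and 8 downwards (0.0781%), against 1 upwards in members. The 2 classes come from the same animals, and an effect past the threshold in 1 class alone does not show a difference.

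Against 436 excitatory nuclei, 1 of 9931 genes passed the difference (0.0101%). Each of these nuclei held at least 5 UMIs of Slc17a7 and Neurod6 and at most 1 of Gad1 and Gad2. They numbered 126, 101, 111 and 98 by library, while excitatory clusters held 6948, 7466, 5956 and 7345 nuclei. The results below thus describe a small selection of excitatory nuclei. In that selection on its own, 177 of 8821 genes passed (2.01%), 145 upwards (1.64%) and 32 downwards (0.363%). The gene that passed the difference was Bc1, a short neuronal noncoding RNA transported into dendrites. It stood at 347, 550, 613 and 873 CPM in members, and at 410, 496, 6150 and 16994 CPM in those excitatory nuclei (difference of log2 effects -3.76 ± 0.32, edgeR adjusted p 0.000171). The result rests on how excitatory nuclei were picked: in excitatory nuclei chosen by cluster instead, Bc1 stood at 380, 628, 730 and 1176 CPM, and the difference was -0.19 (edgeR adjusted p 1). With that choice the 1 gene that passed was Syt17, a synaptotagmin-like protein, with a difference of log2 effects of -1.73 (edgeR adjusted p 0.0124). The Bc1 call was also lost without wildtype replicate 1 (edgeR adjusted p 0.163) or 2 (0.0661). A cluster of 50 nuclei led by Bc1 held 0 and 0 nuclei from the wildtype libraries, 14 and 36 from knockout replicates 1 and 2, and 0 members. In it Slc17a7, a gene of the excitatory rule, stood at 680 CPM, the highest of all clusters. The part of this cluster in the Bc1 value was not tested. In members Camk2a, the calcium/calmodulin kinase of forebrain neurons, stood at 614, 640, 530 and 595 CPM, against 323 to 347 CPM in other Gad nuclei and 164 to 243 CPM in oligodendrocyte nuclei.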

How the data were processed

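Nuclei of 4 cortex samples, 2 wildtype and 2 Setdb1-CK-cKO mice, were profiled with 10x 3′ libraries. The deposited matrices hold UMI counts, not normalized; the submitters' processing notes name Cell Ranger 7.1.0 and mm10. The sources used here state neither the intron setting nor strand use. Counts were summed per library over members, and over other Gad, excitatory, striatal and oligodendrocyte nuclei chosen by similar rules. Levels are counts scaled to a total of 1e6 (CPM).

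Genotypes were compared with edgeR 4.0.16 (quasi-likelihood test, TMM factors, filterByExpr with a minimum count of 10, Benjamini-Hochberg adjustment, threshold 0.05). DESeq2 1.42.0 and limma 3.58.1 (voom) served as alternatives. Differences of effect were tested as a genotype-by-class term beside library. The labels do not say more of how the animals relate, and 2 animals a group limit every test. Nuclei were clustered with scanpy 1.11.5 (2000 variable genes, 30 components, 15 neighbours, Leiden resolution 1; for members 1000, 15, 15 and 0.5), without mitochondrial genes, Setdb1 and sex-linked RNAs. Scrublet (expected rate 10%) marked doublets, which were kept in the sums. On simulated counts with 8437 genes, the knockout test recovered 20.2% of 2-fold and 88.2% of 4-fold changes, with 13 false calls. The simulated libraries all drew on 1 pooled profile, without the uneven spread of groups over the real libraries. These shares therefore need not hold for the real sums.

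Named genes were all that passed, the 10 of smallest p, up to 4 of smallest p from each list, all genes of the lists from earlier results, the 6 of smallest p for each difference of effect, and the 15 highest and 8 lowest folds against other Gad nuclei. Genes naming the groups of members were chosen after their values were seen. The members and lists were chosen with earlier results of these data known. Some items, among them 1 group of members, are not reported here. Gene positions are from GENCODE M21 on mm10.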

Additional observations from a re-analysis of the deposited data

Results flagged for a closer look

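Bc1 was the 1 gene whose knockout effect differed between Meis2 Pbx3 nuclei and excitatory nuclei by a test of the difference itself, with a difference of log2 effects of -3.76 (edgeR adjusted p 0.000171). Bc1 stood at 347 and 550 CPM in wildtype and 613 and 873 CPM in knockout members. It stood at 410 and 496 against 6150 and 16994 CPM in the 436 excitatory nuclei chosen by UMI counts. With excitatory nuclei chosen by cluster the difference was -0.19 and did not pass, while Syt17 passed (edgeR adjusted p 0.0124). The Bc1 call was also lost without wildtype replicate 1 (edgeR adjusted p 0.163) or 2 (0.0661).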

How the results depend on the processing

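For knockout against wildtype in members, where 1 gene rose and 0 fell, DESeq2, upper-quartile factors and removal of ribosomal and mitochondrial genes gave the same counts. Upward calls numbered 25 with no low-count filter (3 fell) and 6 with a threshold of 4 UMIs for Meis2, Pbx3 and Cpa6. They numbered 0 without doublets, at 10 UMIs, with at most 1 UMI of Lhx6 and Adarb2, with limma-voom, in members of the main cluster, in all nuclei of that cluster and in the Foxp2 Zfhx3 group alone. Granule-like nuclei without knockout replicate 2 gave 1 up and 7 down, with 1 knockout animal and no knockout spread. Leaving out 1 replicate gave 0 to 57 up and 0 to 65 down. The alternatives on subsets of nuclei were chosen after seeing the data. The labels give both genotypes replicates 1 and 2 but only as numbers. By RNA, both replicate 1 libraries had low Xist and high Uty, and both replicate 2 libraries the reverse. The replicate block therefore coincides with this pattern of sex-linked RNA, against the labelled sex of the knockout libraries. Across 8814 genes the deviations of same-numbered libraries correlated at 0.225. With the replicate block 18 genes rose and 7 fell. There each gene named in the report among those of smallest p passed at a similar log2 fold change, with edgeR adjusted p from 1.65e-13 for Mnd1 to 0.0188 for Atf7ip, as did Crlf2 (0.00844), Gramd1c (2.89e-04) and Zfp541 (0.0308). In that fit 1 residual degree of freedom is left.

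Against other Gad nuclei, leaving out 1 replicate gave 0 to 10 up and 0 to 23 down, and 0 under each other alternative. Against excitatory nuclei, the 1 downward call became 2 with DESeq2, at 4 or 10 UMIs and with at most 1 UMI of Lhx6 and Adarb2, and 5 with no filter. Leaving out 1 replicate gave 0 to 23 up and 0 to 65 down. The share of members among Gad nuclei differed by 5.07 points, and by -14.3 to 24.5 points with 1 replicate left out: it reversed without wildtype replicate 2 (-3.06) and without knockout replicate 1 (-14.3).

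Among named genes, 12 values reversed, none of a gene that passed. Adk was -0.13 at 10 UMIs and -0.094 in granule-like nuclei, where Mei1 was -0.98. Cacna2d3 was 0.061 at 10 UMIs, 0.30 without knockout replicate 1 and 0.17 in the main cluster. Fstl4 was 0.30 without knockout replicate 1, 0.017 in the main cluster and 0.31 in the Foxp2 Zfhx3 group, where Ptprt was 0.23. Npas2 was 0.042 in the main cluster, and Auts2 0.16 without knockout replicate 2. With 1 replicate left out, Cacna2d3 ranged from -1.03 to 0.30, Fstl4 from -0.79 to 0.30 and Auts2 from -1.15 to 0.16. The cause was not tested. Depth limits low genes: knockout replicate 2 gave 280648 UMIs. Groups of members moved with the clustering seed, with an adjusted Rand index of 0.804 to 0.862 against the groups used.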
